A study of Rattus norvegicus with 12 samples.

Results

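Kidneys taken from brain dead rats were compared with normal kidneys, before any transplantation. The comparison used 6 of the 12 arrays of a study of renal isografts, which are grafts between genetically alike animals. All donors and recipients were inbred male Lewis rats. The first group held 3 kidneys from donors brought to brain death by a slow rise of pressure inside the skull and then ventilated for 6 h, and the second held 3 normal kidneys. The other 6 arrays held grafts taken 1 h after transplantation with 30 min of operative ischemia, 3 from brain dead and 3 from living donors. Their values are given here only beside the genes that changed before transplantation, but they also enter the estimate of spread. Each array measured 1 kidney (Cy3) against RNA mixed from 3 normal kidneys (Cy5), so every value below is the log2 ratio of a kidney to that mixture, and 0 means the level of the mixture. The genes were all those with a probe that carried exactly 1 gene symbol, 9653 genes from 12750 of 21575 probes, and probes of one gene were averaged. Ventilation accompanied brain death in every donor of the first group and in none of the labels of the second, so their effects cannot be told apart. Nothing else is stated on how the replicate animals were kept or handled. The p-values rest on a spread estimated over all 12 arrays, so in part on the variation among the grafts at 1 h. This variation may be technical, may lie between animals, or both, which was not tested. In whole kidney RNA, a change in the number of cells of a type and a change in the RNA of each cell cannot be told apart.

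Brain death releases catecholamines and then inflammatory mediators into the circulation, and the kidney meets both before it is removed. Activated endothelium displays selectins, Icam1 and Vcam1, which slow and hold leukocytes, and secretes chemokines that draw them in. Much of this programme is driven by the transcription factor NF-kB, which is held in the cytoplasm by Nfkbia and binds kappa B sites in promoters. Stressed cells also slow translation through eIF2 alpha and make Atf4, and they make metallothioneins, small proteins that bind zinc and copper, through the factor Mtf1 and metal response elements.

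Promoter sequences of Cxcl1, Tifa, Nfkbia and 3 metallothioneins, all of which rose in brain dead donor kidneys, are shown first. These sequences were chosen because they carry the motifs of these 2 programmes. They are the 200 bases before the RefSeq gene start (assembly GRCr8), written 5′ to 3′ on the strand of the gene. Capitals mark the motif, which is kappa B (GGGNN followed at once by TTTCC) for Cxcl1, Tifa and Nfkbia and the metal response element core (TGCGCNC) for Mt1, Mt2A and Mt3, either strand counted. Cxcl1, a neutrophil chemokine, lies at chr14:17479322-17479521 on the minus strand, with matches that begin at -102 and -84 from the gene start. Tifa, an adaptor of innate immune receptors, lies at chr2:218932686-218932885 on the plus strand, with a match at -14. Nfkbia lies at chr6:78597073-78597272 on the minus strand, with a match at -31. The metallothioneins are neighbours on chromosome 19, all on the minus strand. Mt1 (chr19:10832976-10833175) has matches at -133, -109 and -55, Mt2A (chr19:10838709-10838908) at -165 and -55, and Mt3 (chr19:10856081-10856280) at -81 and -51. A match is a description of letters and says nothing of binding.
Cxcl1: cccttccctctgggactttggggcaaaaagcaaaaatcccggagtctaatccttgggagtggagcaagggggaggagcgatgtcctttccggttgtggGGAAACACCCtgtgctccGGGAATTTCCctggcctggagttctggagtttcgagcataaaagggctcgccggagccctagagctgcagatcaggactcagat
Tifa: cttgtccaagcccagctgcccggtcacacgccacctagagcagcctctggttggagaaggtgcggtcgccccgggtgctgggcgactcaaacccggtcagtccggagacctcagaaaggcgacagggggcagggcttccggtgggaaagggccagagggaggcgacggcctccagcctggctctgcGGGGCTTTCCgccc
Nfkbia: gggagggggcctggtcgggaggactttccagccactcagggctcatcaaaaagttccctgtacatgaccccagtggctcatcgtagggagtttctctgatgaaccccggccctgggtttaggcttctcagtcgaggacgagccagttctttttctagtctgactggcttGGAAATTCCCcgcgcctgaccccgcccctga
Mt1: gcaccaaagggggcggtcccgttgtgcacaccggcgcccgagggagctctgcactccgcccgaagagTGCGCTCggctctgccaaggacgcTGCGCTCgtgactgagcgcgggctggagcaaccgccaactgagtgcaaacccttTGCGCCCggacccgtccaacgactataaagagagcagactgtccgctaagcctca
Mt2A: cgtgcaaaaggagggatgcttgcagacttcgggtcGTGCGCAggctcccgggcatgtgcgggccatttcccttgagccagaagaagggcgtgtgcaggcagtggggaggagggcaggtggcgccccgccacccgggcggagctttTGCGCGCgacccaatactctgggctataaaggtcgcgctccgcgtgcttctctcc
Mt3: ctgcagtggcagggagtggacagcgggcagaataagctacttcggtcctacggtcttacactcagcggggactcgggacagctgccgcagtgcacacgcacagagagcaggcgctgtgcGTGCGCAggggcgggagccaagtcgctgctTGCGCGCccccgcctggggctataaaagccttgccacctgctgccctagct

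RefSeq windows of 300 bases, from 250 before to 50 after the gene start, were available for 7934 of the 9653 genes. The kappa B motif was present in 1.95% of them (155) and in 1.51% of all 27457 promoters of the reference table. Among genes that rose in brain dead donor kidneys it was present in 14 of 219 promoters (6.39%), and among genes that fell in 1 of 205 (0.488%). Of the 55 genes that rose at least 2-fold and had a window, 6 carried it (10.9%), as did 3 of 22 among the 30 largest increases (13.6%). Those 3 are Cxcl1, Tifa and Nfkbia, which were printed above for their matches. Sele, Il1b, Cxcl10, Map3k8, Vcam1, Zc3h12a, Icam1, Tlr2 and Bcl3 were among those with a window and no match. The metal response element core is short and common: it was present in 25.6% of tested promoters, in 30.6% of those of genes that rose and in 27.3% of those of genes that fell. It was less frequent among the genes that rose at least 2-fold (11 of 55) and among the 30 largest increases, where 2 of 22 carried it (9.09%). The C/EBP-ATF response element (TGATGNAA), through which Atf4 acts, was present in 2.19% of tested promoters, 2.74% of those of genes that rose, 1.82% of the 55 and 4.39% of those of genes that fell. For the cyclic AMP response element (TGACGTCA) the shares were 2.76%, 3.65%, 3.64% and 2.44% in the same order. These shares are descriptions without a test.

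Of the 9653 genes, 505 passed in limma at an adjusted p under 0.05 with Benjamini-Hochberg adjustment over all 18478 features of the arrays, which is 5.23% (860 features, or 4.65%, passed in all). Brain dead donor kidneys had 265 genes higher (2.75%) and 240 lower (2.49%). Counts of gene list members below are to be read beside these shares. Increases were the larger changes: 65 genes rose at least 2-fold (0.673%), 17 at least 4-fold and 7 at least 8-fold, whereas 10 fell at least 2-fold (0.104%) and 0 at least 4-fold. The median change was a log2 of 0.60 among genes that rose and -0.47 among those that fell, against 0.0018 over all named genes. Each of the 505 genes had no overlap between the 3 brain dead donor kidneys and the 3 normal kidneys, a separation that 11.9% of all named genes showed in the higher and 13.1% in the lower direction. Brain dead donor kidneys 2 and 3 correlated with each other at r = 0.887 over named genes, and kidney 1 with them at 0.778 and 0.712. Normal kidneys correlated at 0.651 to 0.735 with each other, where most values lie close to 0. Kidney 1 was the nearest of the 3 to the normal mean for 134 of the 265 genes that rose and 152 of the 240 that fell.

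The calls depended on the fit and on single arrays. In a fit of the 6 arrays at 0 h alone, 168 named genes passed. Instead of 505 named genes, 668, 93 and 195 passed without brain dead donor kidney 1, 2 or 3, and 170, 132 and 210 without normal kidney 1, 2 or 3. Of the 30 largest increases, 21 passed whichever of the 6 arrays was left out, and of the 30 largest decreases 9 did. Without brain dead donor kidney 1, 2 or 3, 29, 21 and 29 of the 30 increases passed, and without normal kidney 1, 2 or 3 it was 24, 23 and 25. Of the 30 decreases, 30, 10 and 18 passed without brain dead donor kidney 1, 2 or 3, and 16, 13 and 17 without normal kidney 1, 2 or 3. Where a gene below is said to have passed in a number of the 6 fits, it is this leave-one-out fit that is meant. After quantile normalization 55 of these 60 genes passed, and Cxcl1, Cxcl10, Ubac1, Mxi1 and Amacr did not. Of the genes of smaller change named below, Il33, Ltbr, Jund, Klf6, Slc7a5, Sars1, Slc4a4, Hao2, Haus1, Smarca2, Polg2, Mterf2 and Ift80 did not pass after it either.

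**Figure D1:**
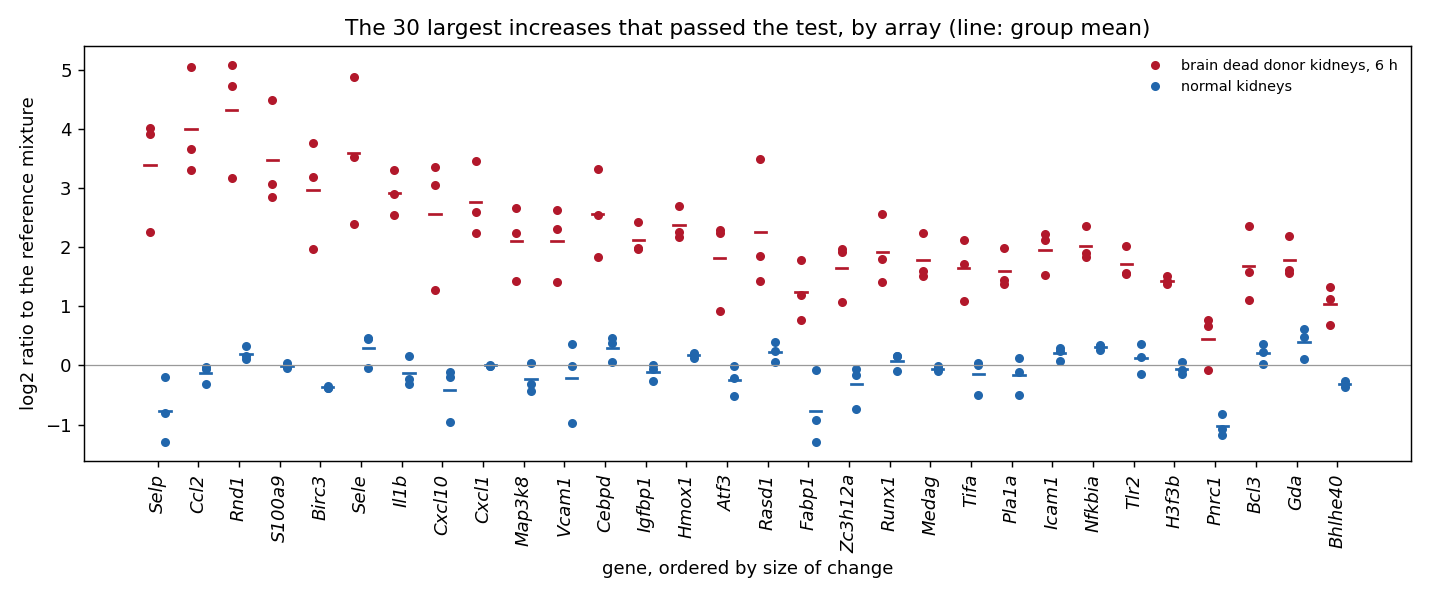
Log2 ratio to the reference mixture (vertical axis) of the 30 genes with the largest increases among those that passed, in order of size; red points are the 3 brain dead donor kidneys, blue points the 3 normal kidneys, and short lines the group means. No gene shows overlap between the groups, brain dead donor kidneys spread most for Sele (2.39 to 4.88), and normal kidneys lie near 0 except for genes such as Selp, Fabp1 and Pnrc1.

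Selp, Ccl2, Sele and other adhesion molecules and chemokines were among the largest increases. Of 16 measured adhesion molecules of endothelium and leukocytes, 5 rose and 0 fell, with a list median of 0.16. Between 2 and 5 passed when 1 array was left out. P-selectin, Selp, which tethers leukocytes to activated endothelium, stood at 4.02, 3.92 and 2.25 in brain dead donor kidneys, against -0.81, -0.19 and -1.30 in normal kidneys. E-selectin, Sele, stood at 4.88, 3.52 and 2.39 in brain dead donor kidneys, against 0.44, -0.04 and 0.46 in normal kidneys. In both genes kidney 3 was the lowest of the brain dead donors and still far above all normal kidneys, although Sele passed in 2 of the 6 fits. Vcam1, the ligand of leukocyte integrin alpha 4, stood at 2.63, 2.30 and 1.40 in brain dead donor kidneys, against 0.36, -0.98 and -0.01 in normal kidneys, and passed in 3 of the 6 fits. Icam1, the ligand of the leukocyte integrin beta 2 family, was tighter, with 2.22, 2.12 and 1.52 in brain dead donor kidneys, against 0.24, 0.07 and 0.29 in normal kidneys. Its change was 1.75 ± 0.16 (log2, SE, n = 3 per group, adjusted p = 0.00151), and it passed in all 6 fits. Pecam1, a junction protein of all endothelium, rose by only 0.29 ± 0.06 (adjusted p = 0.0263).

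Of 26 measured chemokines, 5 rose and 0 fell, and the list median was 0.20. From 2 to 4 of them passed when 1 array was left out. Ccl2, which attracts monocytes, stood at 3.65, 5.05 and 3.31 in brain dead donor kidneys, against -0.32, -0.03 and -0.05 in normal kidneys. Cxcl1 stood at 2.23, 3.45 and 2.59 in brain dead donor kidneys, against -0.01, -0.0022 and 0.01 in normal kidneys. For both chemokines brain dead donor kidney 2 was the highest. The change of Cxcl1 was 2.76 ± 0.43 (adjusted p = 0.0103, all 6 fits), and 2.64 with an adjusted p of 0.0524 after quantile normalization. Cxcl10, an attractant of T cells, stood at 3.36, 3.04 and 1.28 in brain dead donor kidneys, against -0.10, -0.96 and -0.19 in normal kidneys, and passed in 1 of the 6 fits. The smaller increases were those of Ccl7, a monocyte chemokine (0.70, adjusted p = 0.028), and Cxcl16, a membrane-bound chemokine (0.57, adjusted p = 0.0226). Among 13 chemokine receptors 1 rose, the scavenging receptor Ackr3, by 1.11 ± 0.12 (adjusted p = 0.00266), and it passed in all 6 fits. The share of receptors that passed was 7.7%, near the 5.23% of all named genes.

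Birc3, Map3k8 and Nfkbia of the NF-kB pathway rose. Of 26 measured subunits, inhibitors and regulators, 6 rose and 0 fell (median 0.22), with 3 to 7 passing when 1 array was left out. Birc3, a ubiquitin ligase that restrains cell death at the TNF receptor, stood at 3.75, 3.18 and 1.97 in brain dead donor kidneys, against -0.39, -0.35 and -0.38 in normal kidneys. Map3k8, a kinase upstream of ERK, stood at 2.66, 2.24 and 1.43 in brain dead donor kidneys, against 0.04, -0.43 and -0.32 in normal kidneys. Nfkbia stood at 1.89, 2.36 and 1.83 in brain dead donor kidneys, against 0.33, 0.27 and 0.35 in normal kidneys. These 3 genes passed in all 6 fits. Zc3h12a, an RNase that degrades cytokine transcripts, rose by 1.97 ± 0.31 (adjusted p = 0.0102, 5 of the 6 fits). Bcl3, a nuclear partner of NF-kB, rose by 1.47 ± 0.25 (adjusted p = 0.0143, 3 of the 6 fits), with 0.54 and 2.41 for its 2 probes. Ripk2, a kinase of bacterial sensing, rose by 0.54 (adjusted p = 0.0489, 1 of the 6 fits). Tifa, outside this list, stood at 1.72, 2.12 and 1.09 in brain dead donor kidneys, against 0.01, -0.50 and 0.05 in normal kidneys (1.79 ± 0.27, adjusted p = 0.00938, all 6 fits). The subunit gene Nfkb1 did not pass (0.25 ± 0.12, adjusted p = 0.314).

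Il1b rose among the cytokines, and Tnf did not pass. Of 35 cytokines and growth factors, 2 rose and 1 fell (median 0.03, 1 to 3 calls without 1 array). Il1b, interleukin 1 beta, stood at 2.54, 2.91 and 3.31 in brain dead donor kidneys, against -0.32, -0.22 and 0.16 in normal kidneys, and it passed in all 6 fits. Csf1, the macrophage growth factor, rose by 0.60 (adjusted p = 0.0187), and Il33, an alarmin stored in nuclei, fell by 0.36 (adjusted p = 0.0437). Tnf did not pass, with 0.47, 0.27 and 0.36 in brain dead donor kidneys, against 0.59, 0.22 and 0.49 in normal kidneys (-0.07 ± 0.14, adjusted p = 0.908). Of 28 cytokine receptors, 5 rose and 0 fell (median 0.11). They were Il4r (1.05, adjusted p = 0.0164), the TNF receptor Tnfrsf1a (0.84, adjusted p = 0.031), the costimulatory receptor Cd40 (0.67, adjusted p = 0.0222), the lymphotoxin receptor Ltbr (0.38, adjusted p = 0.0177) and Ifngr2, a chain of the interferon gamma receptor (0.35, adjusted p = 0.0253). None of these 5 passed in all 6 fits, and without 1 array the list held 0 to 6 calls. Tlr2, a receptor for bacterial lipoproteins, rose by 1.59 ± 0.27 (adjusted p = 0.0142) and passed in 4 of the 6 fits.

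Several transcripts with large differences in brain dead donor kidneys did not pass. In all, 23 genes were at least 2-fold higher and 4 at least 2-fold lower without passing. Il6, the inducer of the hepatic acute phase, stood at 2.85, 2.32 and 0.99 in brain dead donor kidneys, against -0.31, -0.21 and -0.01 in normal kidneys (2.23 ± 0.58, adjusted p = 0.0611). Ifit3, an interferon-induced gene, stood at 3.18, 2.91 and 1.31 in brain dead donor kidneys, against 0.34, -0.59 and 0.03 in normal kidneys (2.54 ± 0.67, adjusted p = 0.0624). Neither gene overlapped between the groups. In others kidney 1 lay far above kidneys 2 and 3. Lcn2, the injury marker NGAL, was at 2.93, 0.79 and 0.92 in brain dead donor kidneys, against -0.11, -0.04 and 0.01 in normal kidneys (adjusted p = 0.113). For Lcn2, kidneys 2 and 3 were also above every normal kidney. Fga, the fibrinogen alpha chain, was at 4.19, 0.47 and -0.30 in brain dead donor kidneys, against 0.31, 0.20 and 0.33 in normal kidneys (adjusted p = 0.61), and its difference of 1.17 became -0.20 without kidney 1. Lbp, a binding protein of endotoxin, was at 1.46, -0.13 and -0.09 in brain dead donor kidneys, against -0.09, -0.25 and -0.21 in normal kidneys (adjusted p = 0.43). The acute phase list as a whole had 1 of 30 members passed, Cebpd, and its mean log2 ratio was 0.69, 0.30 and 0.22 in brain dead donor kidneys 1, 2 and 3, against 0.02, 0.01 and 0.04 in normal kidneys. The interferon and antigen presentation list had 0 of 32 passed in limma, with mean ratios of 0.68, 0.35 and 0.19 in brain dead donor kidneys, against 0.16, 0.03 and 0.17 in normal kidneys.

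Transcription factors that respond early to stress rose in part. Cebpd, a factor of the acute phase, stood at 3.32, 2.53 and 1.84 in brain dead donor kidneys, against 0.39, 0.06 and 0.47 in normal kidneys, and passed in all 6 fits. Of 18 AP-1, Maf and CREB family factors, 4 rose and 0 fell (median 0.08, 0 to 4 calls without 1 array). Atf3, which represses inflammatory genes, stood at 2.29, 2.24 and 0.92 in brain dead donor kidneys, against -0.21, -0.52 and -0.02 in normal kidneys (3 of the 6 fits). Mafk (1.04), Batf (1.01) and Jund (0.87) were the others, with adjusted p of 0.0189, 0.0134 and 0.0338. The best known AP-1 members did not pass. Fos stood at 1.78, -0.10 and -0.67 in brain dead donor kidneys, against -0.93, -0.18 and -0.20 in normal kidneys, so that the groups overlapped. Junb stood at 2.86, 2.17 and 1.26 in brain dead donor kidneys, against 0.58, 0.92 and 1.11 in normal kidneys (1.22 ± 0.44, adjusted p = 0.16). Of 34 Egr, Klf, Nr4a and other immediate early genes, 5 rose and 0 fell (median 0.33, 1 to 6 calls without 1 array), and 0 of them passed in every such fit. These were Klf10 (1.02), Klf6 (0.94), the antiproliferative genes Btg1 (0.82) and Btg3 (0.46), and Id2 (0.70), an inhibitor of helix-loop-helix factors. Of 29 MAPK phosphatases and feedback inhibitors 0 passed in limma. Runx1, a factor of blood formation, stood at 2.56, 1.79 and 1.41 in brain dead donor kidneys, against 0.16, -0.10 and 0.16 in normal kidneys (1.85 ± 0.23, adjusted p = 0.0042, all 6 fits).

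H3f3b, which encodes the replication-independent histone H3.3, rose with little spread. It stood at 1.42, 1.51 and 1.37 in brain dead donor kidneys, against -0.08, 0.05 and -0.15 in normal kidneys, a change of 1.49 ± 0.12 (adjusted p = 6.86e-04). Pnrc1, a coactivator of nuclear receptors, had normal kidneys well below the mixture, as had Edn1 and Mt1. It stood at -0.08, 0.76 and 0.66 in brain dead donor kidneys, against -0.82, -1.08 and -1.18 in normal kidneys (1.48 ± 0.23, adjusted p = 0.0097). For 93.7% of named genes the normal kidneys' mean lay within 0.5 log2 units of the mixture. The sources used here do not state whether kidneys pooled in the mixture were the same ones put singly on the normal arrays.

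Atf4 and several of its target genes rose in brain dead donor kidneys. Of 38 measured genes, 10 rose and 1 fell (median 0.24), and 6 to 9 passed without 1 array. Atf4 itself stood at 0.85, 1.20 and 1.19 in brain dead donor kidneys, against 0.22, 0.22 and 0.14 in normal kidneys (0.89 ± 0.10, adjusted p = 0.00274). Sesn2, a leucine sensor that restrains mTORC1, stood at 1.58, 1.72 and 1.48 in brain dead donor kidneys, against 0.40, 0.29 and 0.64 in normal kidneys (1.15 ± 0.12, adjusted p = 0.0025). Ppp1r15a, the GADD34 subunit that brings phosphatase to eIF2 alpha, stood at 1.34, 1.94 and 1.42 in brain dead donor kidneys, against 0.43, 0.25 and 0.50 in normal kidneys (1.17 ± 0.18, adjusted p = 0.0097). All 3 passed in all 6 fits, as did Herpud1, a protein of endoplasmic reticulum degradation (0.65), and Mthfd2, a mitochondrial folate enzyme (0.50). Slc7a1, the arginine and lysine transporter, rose by 1.14 ± 0.18 (5 of the 6 fits) and Slc7a5, the leucine transporter, by 0.63 ± 0.13 (1 of the 6 fits). The aminoacyl-tRNA synthetase genes Yars1 (0.35) and Sars1 (0.20) and the chaperone gene Dnajb9 (0.57) also rose, with adjusted p of 0.0173, 0.0478 and 0.0169. Trib2, a pseudokinase, fell by 0.43 (adjusted p = 0.0463, 0 of the 6 fits). Classical members of the same response did not pass: Ddit3, which encodes CHOP, was at 0.25, 0.01 and 0.04 in brain dead donor kidneys, against 0.06, -0.02 and -0.08 in normal kidneys (adjusted p = 0.685). Hspa5, the chaperone BiP, was at 1.32, 0.10 and 0.09 in brain dead donor kidneys, against 0.48, -0.02 and -0.0029 in normal kidneys (adjusted p = 0.64). Asns, asparagine synthetase, showed 0.13 ± 0.07 (adjusted p = 0.407).

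Of 35 heat shock chaperones 1 rose and 2 fell (median 0.01, 0 to 3 calls without 1 array). Hspa1a, the inducible Hsp70, stood at 1.80, 0.97 and 1.09 in brain dead donor kidneys, against 0.07, 0.09 and 0.12 in normal kidneys. Its change of 1.19 ± 0.26 (adjusted p = 0.0337) passed in 0 of the 6 fits, with an adjusted p of up to 0.103. Hspa4, a nucleotide exchange factor of Hsp70, fell by 0.52 (adjusted p = 0.0182), and the muscle small heat shock protein Hspb2 by 0.54 (adjusted p = 0.0174), each in 2 of the 6 fits. Rbm3, a protein best known as induced by mild cold, stood at 0.40, 0.68 and 1.17 in brain dead donor kidneys, against -0.21, -0.47 and -0.36 in normal kidneys (1.10 ± 0.23, adjusted p = 0.0296, 1 of the 6 fits). The related Cirbp did not pass, with 0.44 ± 0.15 (adjusted p = 0.148). Rbm3 and Cirbp were listed together only after the calls had been seen.

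Mt1, Mt2A and Mt3 rose. Of 21 metallothionein and metal transport genes, 4 rose and 0 fell (median 0.09, 2 to 3 calls without 1 array), and they were the 3 metallothioneins whose promoters are printed above and Mtf1, the zinc-sensing factor that acts on metal response elements. Mt1 stood at 0.45, 0.47 and 0.52 in brain dead donor kidneys, against -0.80, -0.50 and -0.46 in normal kidneys (1.07 ± 0.10, adjusted p = 0.00184). Mt3 stood at 0.89, 0.85 and 1.02 in brain dead donor kidneys, against -0.04, -0.0038 and -0.05 in normal kidneys (0.95 ± 0.07, adjusted p = 6.86e-04). Mt2A spread more, with 1.01, 0.61 and 0.22 in brain dead donor kidneys, against -0.55, -0.44 and -0.34 in normal kidneys (1.06 ± 0.25, adjusted p = 0.0429). Mt1 and Mt3 passed in all 6 fits and Mt2A in 1. Near-identical copies of metallothionein genes can share probe signal, and this was not tested. Mtf1 rose by 0.54 ± 0.12 (adjusted p = 0.0383, 1 of the 6 fits). Of 43 Nrf2, heme and antioxidant genes, 4 rose and 0 fell (median -0.0005, 2 to 6 calls without 1 array). Hmox1, heme oxygenase 1, stood at 2.17, 2.26 and 2.70 in brain dead donor kidneys, against 0.18, 0.12 and 0.21 in normal kidneys, with 1.32 and 3.08 for its 2 probes. Sod2, the mitochondrial superoxide dismutase, stood at 1.25, 0.87 and 0.73 in brain dead donor kidneys, against -0.03, -0.30 and -0.11 in normal kidneys (1.10 ± 0.20, adjusted p = 0.0177, 3 of the 6 fits). Txnrd1, thioredoxin reductase, rose by 0.47 and the efflux pump Abcc3 by 0.31.

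Single vascular genes changed in both directions. Of 48 endothelial and arterial genes, 2 rose and 3 fell (median 0.01, 1 to 5 calls without 1 array). Tmem204, a membrane protein of endothelial junctions, had the largest decrease of all named genes that passed, with -2.40, -1.56 and -1.67 in brain dead donor kidneys, against 0.26, -0.37 and 0.07 in normal kidneys. Jag1, a Notch ligand of arteries, stood at -0.91, -1.60 and -1.15 in brain dead donor kidneys, against -0.22, -0.09 and -0.33 in normal kidneys (-1.01 ± 0.17, 5 of the 6 fits). Gja5, connexin 40 of arteries and renin cells, stood at -0.56, -1.30 and -0.94 in brain dead donor kidneys, against 0.03, 0.09 and -0.03 in normal kidneys (-0.96 ± 0.20, 1 of the 6 fits). Sox7, an endothelial transcription factor, rose by 0.96 and Gjc1, connexin 45, by 0.61. Of 47 vasoactive genes, 3 rose and 1 fell, with 1 to 3 calls without 1 array. Adm, the vasodilator adrenomedullin, stood at 0.70, 1.16 and 0.75 in brain dead donor kidneys, against 0.13, -0.16 and 0.0033 in normal kidneys (0.88 ± 0.14, adjusted p = 0.011, all 6 fits). Edn1, the vasoconstrictor endothelin 1, stood at -0.51, -0.02 and -0.17 in brain dead donor kidneys, against -0.87, -0.85 and -1.20 in normal kidneys (0.74 ± 0.17, adjusted p = 0.0393, 1 of the 6 fits). Gch1, which makes the cofactor of nitric oxide synthases, rose by 0.60, and Npr1, the receptor of atrial natriuretic peptide, fell by 0.20. Kcnj8, a pore subunit of ATP-sensitive potassium channels in vessels, rose by 1.18 ± 0.23 (adjusted p = 0.0234, 2 of the 6 fits). Of 28 coagulation and fibrinolysis genes, 2 rose and 0 fell: Plat, tissue plasminogen activator, by 0.68 ± 0.09 (adjusted p = 0.00608, all 6 fits) and Thbd, thrombomodulin, by 0.76 ± 0.19 (adjusted p = 0.0485, 1 of the 6 fits). These 2 are 7.1% of the list, near the 5.23% of all named genes, with 1 to 2 calls without 1 array.

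Genes of metabolism, hormones and tubules changed singly. Igfbp1, which binds and holds insulin-like growth factors, stood at 2.42, 1.98 and 1.96 in brain dead donor kidneys, against -0.27, 0.0014 and -0.06 in normal kidneys (2.23 ± 0.25, adjusted p = 0.00274, all 6 fits). Fabp1, a fatty acid binding protein of liver and proximal tubule, stood at 1.19, 0.77 and 1.78 in brain dead donor kidneys, against -0.92, -0.08 and -1.29 in normal kidneys (2 of the 6 fits). Among 32 glucocorticoid-responsive and clock genes, with 2 to 5 calls without 1 array, 4 rose and 1 fell: Bhlhe40, a repressor of the clock (1.36), the cochaperone Fkbp5 (1.18), Mt2A and Tsc22d1 (0.86) rose, and Nr3c2, the mineralocorticoid receptor, fell by 0.50 ± 0.10. Fkbp5 stood at 0.90, 1.35 and 1.72 in brain dead donor kidneys, against 0.39, -0.13 and 0.17 in normal kidneys, and passed in 1 of the 6 fits. Nr0b2, the corepressor SHP, stood at -1.94, -1.16 and -0.65 in brain dead donor kidneys, against -0.13, 0.15 and -0.08 in normal kidneys (-1.23 ± 0.28, adjusted p = 0.0398, 2 of the 6 fits). Of 29 tubular injury and repair markers 4 rose and 0 fell, Vcam1, Tubb6, Anxa1 and Clu, and Tubb6, a beta tubulin, did so in all 6 fits with 1.23, 1.42 and 0.95 in brain dead donor kidneys, against 0.06, -0.15 and 0.05 in normal kidneys. Of 49 proximal tubule genes, 1 rose and 3 fell, with 1 to 3 calls without 1 array. Slc4a4 was the 1 that rose and Hao2 was 1 of the 3 that fell. Neither passed in limma after quantile normalization (adjusted p = 0.056 and 0.0674). Akr1c19, an aldo-keto reductase, stood at -1.18, -1.59 and -1.40 in brain dead donor kidneys, against -0.05, -0.37 and -0.32 in normal kidneys (-1.15 ± 0.16, adjusted p = 0.00702, all 6 fits). Slc15a2, the peptide transporter PEPT2, stood at -1.01, -1.37 and -1.24 in brain dead donor kidneys, against -0.17, -0.16 and -0.69 in normal kidneys (4 of the 6 fits). Of 229 solute carriers as a family, 7 rose and 7 fell (1 to 16 calls without 1 array, 0 in every such fit). This is 6.1% of them, near the 5.23% of all named genes. Of 31 glutathione, glucuronosyl and sulfo transferases 0 passed in limma.

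**Figure D2:**
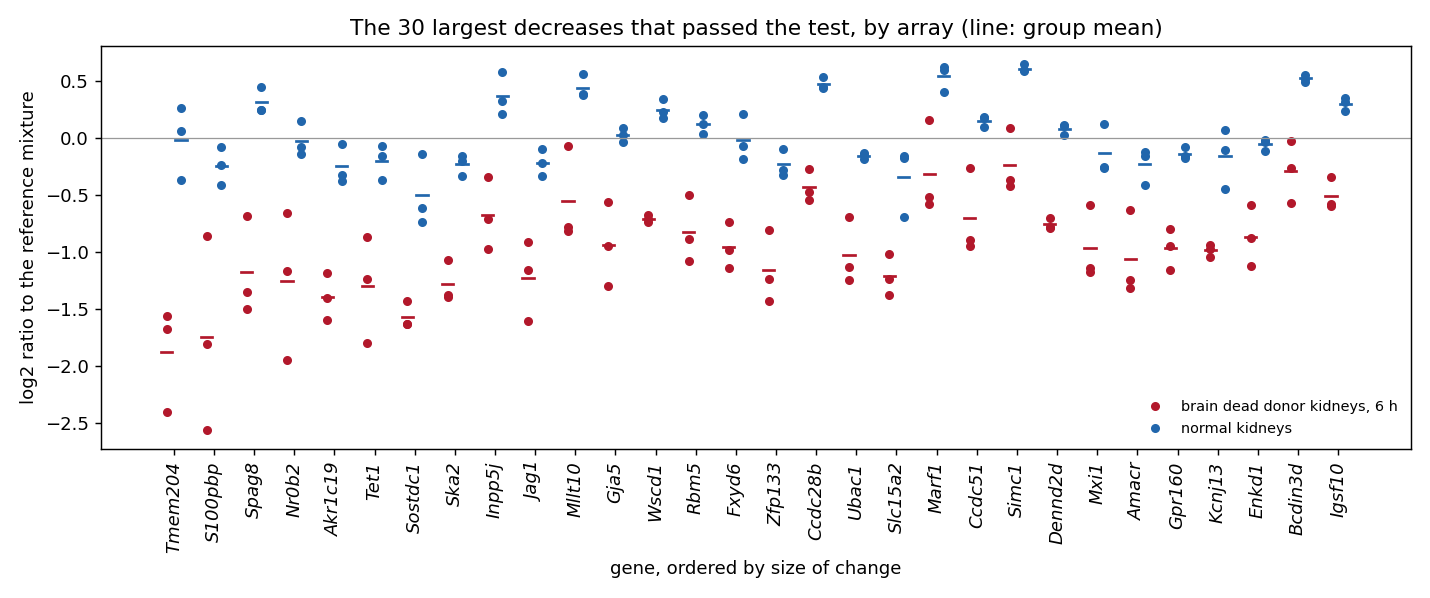
Log2 ratio to the reference mixture (vertical axis) of the 30 genes with the largest decreases among those that passed, in order of size; red points are the 3 brain dead donor kidneys, blue points the 3 normal kidneys, and short lines the group means. The groups do not overlap for any gene, and brain dead donor kidney 1 is often the one nearest to the normal kidneys, as for Marf1 (0.16) and Mllt10 (-0.07).

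Decreases were spread over genes of many functions. Sostdc1, a secreted antagonist in BMP and Wnt signalling, stood at -1.63, -1.63 and -1.43 in brain dead donor kidneys, against -0.61, -0.14 and -0.73 in normal kidneys (-1.07 ± 0.16, all 6 fits). Wscd1 stood at -0.71, -0.67 and -0.73 in brain dead donor kidneys, against 0.18, 0.35 and 0.23 in normal kidneys (-0.96 ± 0.12, all 6 fits). Dennd2d, a regulator of Rab GTPases, stood at -0.69, -0.79 and -0.78 in brain dead donor kidneys, against 0.11, 0.11 and 0.03 in normal kidneys (-0.84 ± 0.11, all 6 fits). The groups did not overlap for these genes, with little spread in Wscd1 and Dennd2d and more between the normal kidneys in Sostdc1. Inpp5j, an inositol phosphatase, fell by 1.04 ± 0.16, Fxyd6, a regulator of the sodium pump, by 0.94 ± 0.12, Ccdc28b by 0.90 ± 0.11 and Igsf10 by 0.81 ± 0.09, all in all 6 fits. Other decreases lost their call in most of the 6 leave-one-out fits. Their direction could not turn in these fits, because the groups did not overlap. S100pbp stood at -0.86, -2.56 and -1.80 in brain dead donor kidneys, against -0.08, -0.41 and -0.23 in normal kidneys, and passed in 1 of the 6 fits, with a change between -1.94 and -1.09 in them. Rbm5, an RNA-binding protein of splicing (-0.94 ± 0.20), Amacr, a racemase of branched fatty acids (-0.83 ± 0.18), and Mxi1, a repressor that competes with Myc (-0.83), likewise passed in 1, and the change in them never came closer to 0 than -0.71.

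Other genes of large change were not named with the groups above. Rnd1 stood at 5.08, 4.72 and 3.17 in brain dead donor kidneys, against 0.34, 0.10 and 0.16 in normal kidneys (4.12 ± 0.50, adjusted p = 0.00377, all 6 fits). Rasd1, a Ras-like protein induced by glucocorticoids, stood at 3.49, 1.85 and 1.43 in brain dead donor kidneys, against 0.05, 0.40 and 0.25 in normal kidneys (2.02 ± 0.42, adjusted p = 0.0282, 2 of the 6 fits). Kidney 1 was the highest in both, and the groups did not overlap. Medag rose by 1.83 ± 0.20 (all 6 fits), Pla1a, a phospholipase that acts on phosphatidylserine, by 1.76 ± 0.25 (all 6 fits) and Gda, guanine deaminase, by 1.38 ± 0.18 (all 6 fits). Among the decreases, Spag8 stood at -0.68, -1.50 and -1.34 in brain dead donor kidneys, against 0.45, 0.25 and 0.25 in normal kidneys (-1.49 ± 0.25, 4 of the 6 fits). Kcnj13, an inward rectifier potassium channel, stood at -1.04, -0.94 and -0.97 in brain dead donor kidneys, against -0.11, 0.08 and -0.44 in normal kidneys (-0.82 ± 0.16, 2 of the 6 fits). The decreases of Simc1 (-0.85, 5 of the 6 fits), Enkd1 (-0.81, 4 of the 6 fits), and Ubac1 (-0.87), Ccdc51 (-0.85), Gpr160 (-0.83) and Bcdin3d (-0.81), with 1 of the 6 fits each, were of similar size.

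Genes of chromatin and DNA methylation changed in both directions: of 37 measured, 2 rose and 6 fell (median -0.0045, 2 to 9 calls without 1 array). The 2 that rose were H3f3b (1.49), a histone gene rather than an enzyme, and Arid5a, an RNA-binding protein. Tet1, which oxidises methylcytosine, stood at -1.80, -1.23 and -0.87 in brain dead donor kidneys, against -0.37, -0.07 and -0.16 in normal kidneys (-1.10 ± 0.20, 3 of the 6 fits). Hdac11, a histone deacetylase, fell by 0.62 ± 0.10 (5 of the 6 fits), Smarca2, an ATPase of the SWI/SNF complex, by 0.69 ± 0.16 (1 of the 6 fits), and the deacetylase Hdac1 by 0.30 (1 of the 6 fits). Mllt10 and Mllt3, cofactors of the DOT1L methyltransferase, fell by 0.99 and 0.54, and the 2 probes of Mllt10 gave -1.75 and -0.24. Of 109 zinc finger genes of the Zfp and Znf families, 2 rose and 8 fell (0 to 14 calls without 1 array, 0 in every such fit), from -0.19 for Zfp64 to -0.92 for Zfp133. Of 44 spindle, kinetochore and cell cycle genes, 0 rose and 2 fell (0 to 2 calls without 1 array), Ska2 (-1.05 ± 0.16, 5 of the 6 fits) and Haus1 (-0.58 ± 0.14, 1 of the 6 fits). These 2 are 4.5% of the list, against 5.23% of all named genes.

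Further gene groups were drawn up after the calls had been seen, so their counts describe the calls and support nothing. Of 44 genes of mitochondrial gene expression and complex assembly, 3 rose and 10 fell (median -0.15, 1 to 13 calls without 1 array). Bcs1l, a chaperone of respiratory complex III, stood at -0.40, -0.49 and -0.51 in brain dead donor kidneys, against -0.01, 0.01 and 0.02 in normal kidneys (-0.47 ± 0.06, adjusted p = 0.00571, all 6 fits). Coa4, an assembly factor of cytochrome c oxidase (-0.76), Mterf2, a mitochondrial transcription factor (-0.77), and Fastkd1, a protein of mitochondrial RNA (-0.73), fell the most, and Polg2, the accessory subunit of the mitochondrial DNA polymerase, rose by 0.84. Of 62 respiratory chain and ATP synthase subunits, 2 rose and 1 fell (4.8%), and of 44 mitochondrial ribosomal proteins 0 rose and 2 fell (4.5%). These 2 lists were not among those drawn up after the calls, and both shares lie near the 5.23% of all named genes. Called or not, 15 of the 44 mitochondrial ribosomal proteins were lower without overlap between the groups, and 1 was higher. Of the 62 respiratory chain and ATP synthase subunits, 8 were lower and 2 higher in this way. Among all named genes 13.1% were lower and 11.9% higher without overlap. Of 31 cilium and intraflagellar transport genes, 0 rose and 6 fell (median -0.12, 1 to 6 calls without 1 array). Mkks, a chaperonin-like protein of ciliary assembly, stood at -0.94, -0.98 and -0.61 in brain dead donor kidneys, against -0.16, -0.14 and -0.25 in normal kidneys (-0.66 ± 0.09, all 6 fits), and Ift25, Ift27 and Ift80, parts of the transport train, fell by 0.46, 0.32 and 0.24. Of 50 DNA repair genes, 2 rose and 5 fell (0 to 10 calls without 1 array), among them the oxidised guanine glycosylase Ogg1 (-0.52) and Rad52 (-0.76). Of 10 TRAPP complex genes of vesicle transport, 0 rose and 3 fell (0 to 1 without 1 array), and of 58 general transcription factors and Mediator subunits 2 rose and 6 fell (0 to 13 without 1 array).

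Tsr1 and 10 other genes of ribosome assembly rose. Of 59 genes of ribosome biogenesis and RNA polymerase I, a group also drawn up after the calls were seen, 11 rose and 0 fell (median 0.08, 1 to 12 calls without 1 array). Tsr1, which matures the small subunit, stood at 0.58, 0.81 and 0.89 in brain dead donor kidneys, against 0.23, 0.18 and 0.18 in normal kidneys (0.56 ± 0.08, adjusted p = 0.00623, all 6 fits). Gpatch4, a nucleolar protein, rose by 1.03 ± 0.19 (3 of the 6 fits). Of 50 ribosomal proteins 0 passed in limma (median -0.05). Among 57 RNA helicases and splicing factors, 6 rose and 1 fell (2 to 12 calls without 1 array), and Hnrnpa1, an abundant splicing repressor, stood at 0.76, 0.97 and 0.94 in brain dead donor kidneys, against 0.18, -0.10 and 0.03 in normal kidneys (0.85 ± 0.10, adjusted p = 0.00377, all 6 fits).

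**Figure D3:**
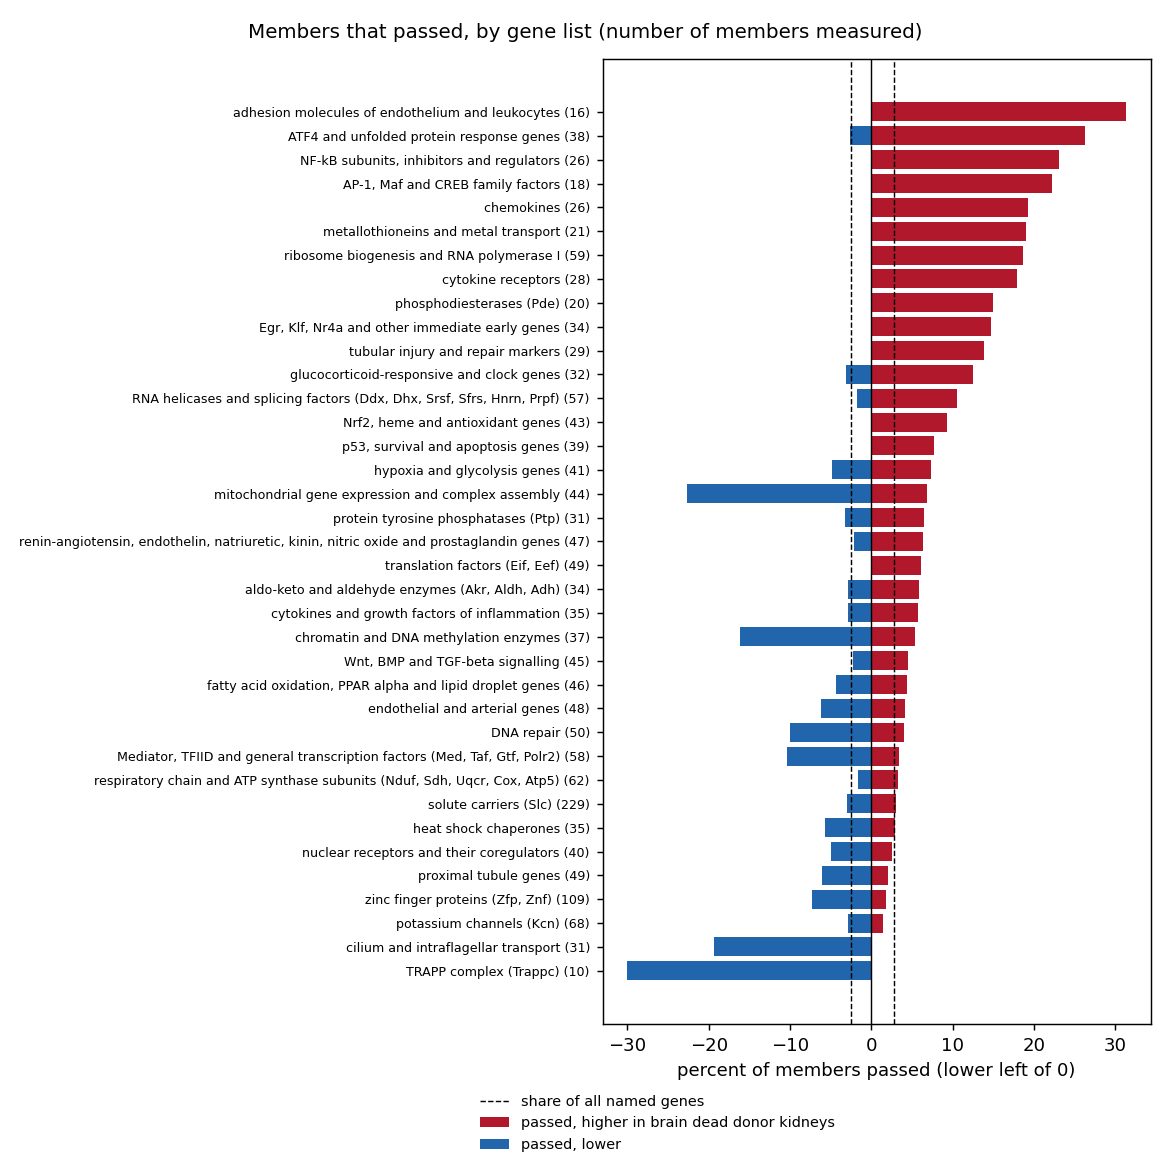
Percent of measured members that passed, higher (red, right of 0) or lower (blue, left of 0) in brain dead donor kidneys, for 37 gene lists with at least 10 measured members and 3 calls; numbers in brackets are members measured and dashed lines the shares of all named genes (2.75% higher, 2.49% lower). Adhesion molecules reach 5 of 16 higher and TRAPP genes 3 of 10 lower; the ribosome biogenesis, mitochondrial, cilium, DNA repair, Mediator, TRAPP, phosphodiesterase and tyrosine phosphatase lists were drawn up after the calls were seen.

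**Figure D4:**
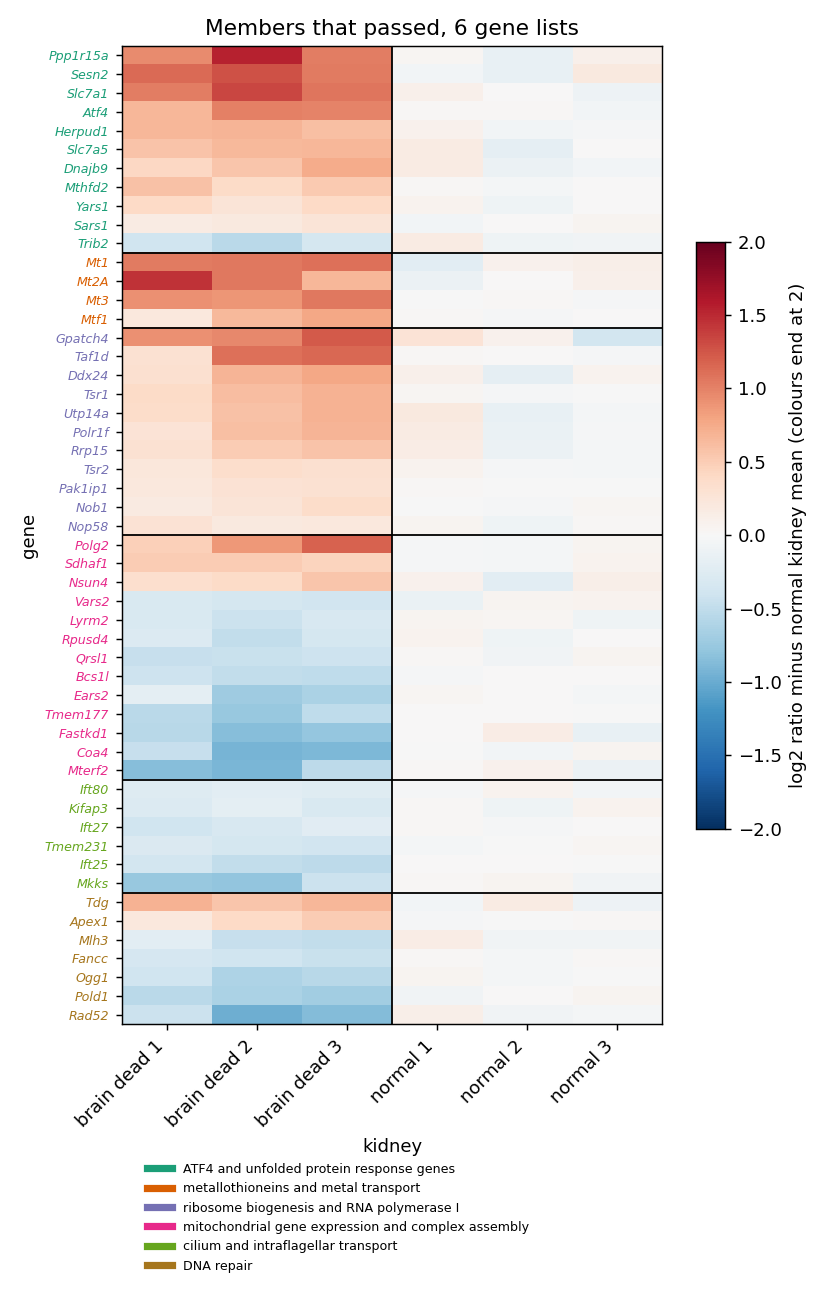
Log2 ratio minus the normal kidney mean (colour) of the 52 members that passed in 6 gene lists, by kidney, brain dead donors left and normal kidneys right. Atf4, metallothionein and ribosome biogenesis genes are red in the brain dead donor kidneys except Trib2, cilium genes are blue, and the mitochondrial and DNA repair lists hold both.

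Markers of leukocytes and kidney cell types were read beside these results. On ratio arrays a marker has no absolute level, so a cell type cannot be called absent. Of 8 neutrophil markers 1 rose, S100a9, with 4.48, 3.07 and 2.84 in brain dead donor kidneys, against -0.04, -0.01 and 0.04 in normal kidneys (3.47 ± 0.50, all 6 fits). The mean log2 ratio of the 8 was 1.10, 0.61 and 0.53 in brain dead donor kidneys, against -0.17, 0.01 and 0.05 in normal kidneys. S100a9 weighs heavily in this mean, as the median change of the 8 was 0.44. The partner of S100a9, S100a8, did not pass and overlapped, with 1.95, 1.25 and 0.67 in brain dead donor kidneys, against -0.40, 0.38 and 0.75 in normal kidneys. Of 11 monocyte and macrophage markers 0 passed in limma, and their mean was 0.32, 0.24 and 0.17 in brain dead donor kidneys, against 0.08, -0.06 and 0.13 in normal kidneys. Of 11 T and NK cell markers 1 rose, the protease gene Gzma (0.82 ± 0.15, 2 of the 6 fits). Endothelial markers averaged 0.01, 0.03 and 0.06 in brain dead donor kidneys, against 0.19, 0.01 and 0.18 in normal kidneys, with 1 of 7 risen (Pecam1). Proximal tubule markers averaged between -0.14 and 0.11 in brain dead donor kidneys, against -0.20 to 0.03 in normal kidneys, and 0 of 6 passed in limma. The part of cell numbers in the changes of single genes was not tested.

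The same genes were read on the other 6 arrays, 1 h after transplantation, where brain dead donor grafts were set against living donor grafts. The 2 comparisons share no array, although they share the fit's estimate of spread. Of the 265 genes higher at 0 h, 121 (45.7%) also passed higher at 1 h, where 2.5% of all named genes did, and 0 passed lower. Of the 240 genes lower at 0 h, 172 (71.7%) also passed lower, where 4.82% of all named genes did, and 0 passed higher. The median change of the genes higher at 0 h was 0.60 at 0 h and 0.39 at 1 h, and that of the genes lower at 0 h was -0.47 at both times. After quantile normalization the genes called at both times were 34 higher and 81 lower. Without 1 of the 6 arrays at 0 h they were 37 to 187 higher and 27 to 245 lower, the lowest without brain dead donor kidney 2 and the highest without kidney 1. No feature passed the test of the difference between the 2 comparisons: 0 of 18478 in limma after adjustment, with 964 at an unadjusted p under 0.05, which is 5.22%.

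**Figure D5:**
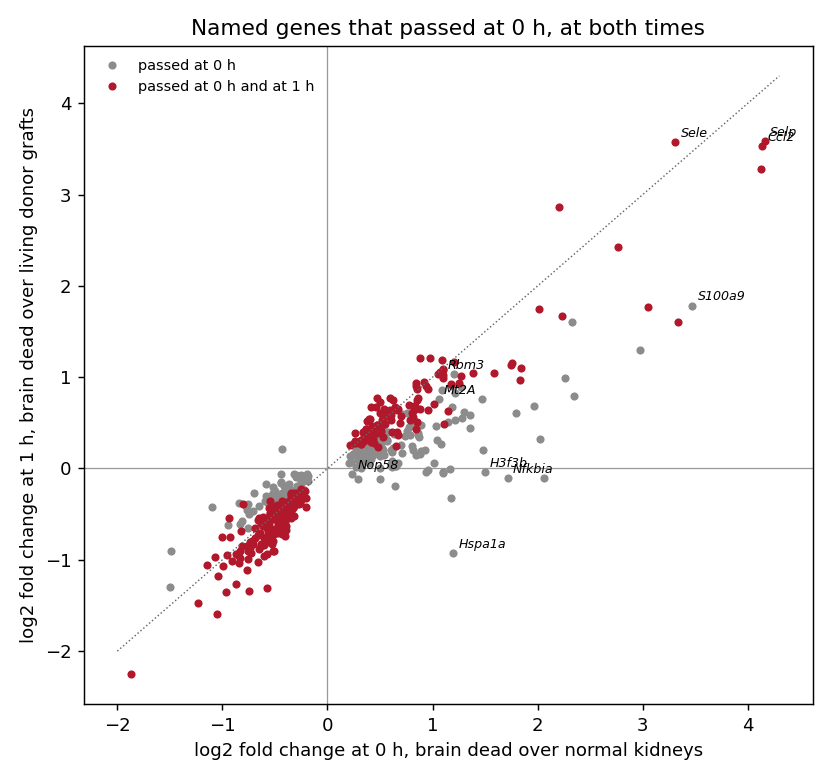
Log2 fold change at 0 h, brain dead donor over normal kidneys (horizontal), and at 1 h, brain dead donor over living donor grafts (vertical), of the 505 named genes that passed at 0 h; red points also passed at 1 h and the dotted line marks equal change. H3f3b, Nfkbia and Hspa1a, higher at 0 h, lie at or below 0 at 1 h, and genes lower at 0 h scatter about the line, with Tet1 at -1.10 and -0.43 and Ptpn23 at -0.43 and 0.21.

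Several genes that rose at 0 h had high ratios in both kinds of graft at 1 h. H3f3b stood at 1.72, 1.45 and 1.74 in brain dead donor grafts, against 1.71, 1.44 and 1.88 in living donor grafts, so that the 2 kinds of graft overlapped and both lay near the brain dead donor kidneys at 0 h. Its donor difference was -0.04 at 1 h against 1.49 at 0 h, the smallest p of the test of the difference (adjusted p = 0.0648). Nfkbia stood at 2.92, 2.53 and 2.44 in brain dead donor grafts, against 3.18, 2.42 and 2.60 in living donor grafts. Ppp1r15a stood at 2.07, 2.27 and 2.52 in brain dead donor grafts, against 2.70, 2.79 and 2.35 in living donor grafts. Atf4 stood at 1.61, 1.57 and 1.69 in brain dead donor grafts, against 1.52, 1.49 and 1.29 in living donor grafts. For Nfkbia, Ppp1r15a and Atf4 the test of the difference gave an adjusted p of 0.473. For other genes the groups also lay apart at 1 h. Selp stood at 2.91, 2.10 and 3.95 in brain dead donor grafts, against -1.15, -0.58 and -0.07 in living donor grafts. Mt1 differed by 1.05 at 1 h and 1.07 at 0 h, Sod2 by 1.09 and 1.10, Il4r by 1.03 and 1.05, and Arid5a, an RNA-binding protein that stabilises Il6 transcripts, by 1.18 and 1.09. Ska2 stood at -2.02, -1.94 and -1.74 in brain dead donor grafts, against -0.58, -0.42 and 0.08 in living donor grafts.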

How the data were processed

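Two-colour Agilent arrays measured 1 kidney or graft (Cy3) against a mixture of 3 normal kidneys (Cy5) on each of 12 arrays, 3 in each of 4 groups. The authors deposited 1 normalized log10 ratio per probe and array, and the submitters' processing notes name Agilent Feature Extraction A.7.1.1 and GeneSpring 7.0. The log10 scale and the direction, Cy3 over Cy5, are not printed with the values: the direction rests on the dyes in the labels, and the scale on the values, 8 of which lie at a limit of 2. Array medians were 0 to 0.0099 on the log2 scale. No source used here gives signal over background, so the number of arrays limits the precision. One label is the same text on all 12 arrays and contradicts most titles, and the groups were taken from the titles.

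The deposited log10 ratios were multiplied by 3.322 to give log2. Gene symbols came from the platform annotation: 12750 probes had 1 symbol, 5 had several and 8820 none, and probes of a gene were averaged into 9653 named genes. Of the named genes that passed, 100 had more than 1 probe, and for 9 of them the probes differed in sign. The 8825 other probes stayed single in the fit and its adjustment, giving 18478 features. A linear model of the 4 groups was fitted with limma 3.58.1 in R 4.3.3 (8 residual degrees of freedom, 1.89 prior) with Benjamini-Hochberg adjustment and a threshold of 0.05, and the code was tested on simulated data. The text names the 30 largest increases and decreases that passed and members of gene lists. The comparison, its members and the lists were chosen with earlier results of these data known, and 9 lists were written after the calls were seen. Same-numbered brain dead donor and normal kidneys deviated together at r = 0.124, -0.010 and -0.153, and kidneys of different number at -0.14 to 0.19. These values show no pairing by number, but with so few kidneys they cannot exclude one. The main fit used no pairing. Alternatives were other normalizations, array weights, robust and 6-array fits, a replicate block, other treatments of zeros, limits and probes, each of the 6 arrays at 0 h left out, and 1 brain dead donor graft at 1 h left out. One gene list is not reported here.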

Additional observations from a re-analysis of the deposited data

Results flagged for a closer look

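Probes without a single gene symbol also carried signal. Of 8825 such probes 355 passed (4.02%) in the same limma fit, 154 higher and 201 lower in brain dead donor kidneys. At least 2-fold changes were 33 higher and 15 lower, and log2 changes ran from -1.74 to 3.35. They are not named here.

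The donor effect on Hspa1a, the inducible Hsp70, differed between the times by -2.12 (log2, 1 h minus 0 h), with an interaction p of 0.000199 in limma and 0.473 after adjustment over all features. Every brain dead donor kidney was above every normal kidney at 0 h. At 1 h it stood at 2.22, 2.62 and 2.38 in brain dead donor grafts, against 3.85, 3.32 and 2.85 in living donor grafts, so that the order was the opposite.

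Nop58, a nucleolar protein of small RNA particles, differed between the times by -0.294. It stood at 0.12, 0.03 and 0.03 in brain dead donor kidneys, against -0.12, -0.26 and -0.16 in normal kidneys, and at 1 h at -0.02, 0.02 and -0.01 in brain dead donor grafts, against 0.07, 0.05 and 0.05 in living donor grafts. Its interaction p in limma was 0.00186, and 0.536 after adjustment.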

How the results depend on the processing

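Counts of calls moved under the alternatives. None of the 236 genes checked, all of which passed, turned its direction under an alternative that was run. Where 1 array at 0 h was left out this could not have come out otherwise, because the groups did not overlap for these genes. The 6-array, replicate block and robust fits also leave the size of a change as it was. The fit of the 6 arrays alone passed 350 features and 168 named genes, against 860 and 505 in the fit of all 12, with fewer residual degrees of freedom. Array weights passed 2852 features and 1568 named genes. That fit leaned on brain dead donor kidney 2, with a weight of 4.54 against 0.45 for kidney 1 and 1.21 for kidney 3. A 2-fold limit left 75 named genes. Leaving out 1 array gave 165 to 1186 features and 93 to 668 named genes. Genes higher at both times were 121, and 34 after quantile normalization, 220 with array weights and 37 to 187 without 1 array. Genes lower at both times were 172, and 81, 340 and 27 to 245 under the same settings. The difference between the times passed for 0 features in limma, 3 with array weights and 0 without any 1 of the 6 arrays at 0 h or without 1 brain dead donor graft, and the other 5 arrays at 1 h were not left out. The cause was not tested. Whether the same replicate numbers pair the kidneys could not be told. A replicate block on the 6 arrays passed 2 features and 1 named gene with 2 residual degrees of freedom. Of the called named genes 47.5% were lower, against 30.1% without brain dead donor kidney 2, 32.3% without kidney 3 and 31.2% without normal kidney 1. Of 236 named or listed genes that passed, 33 no longer passed after quantile normalization, 5 after median centring, 161 in the 6-array fit, 5 with robust moderation, 2 with zeros missing and 7 with probe medians; with array weights, all 236 passed.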
